A study of Mus musculus with 6 samples.

Results

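The genes described here encode proteins of transforming growth factor beta (TGF-beta) signalling: the ligands Tgfb1, Tgfb2 and Tgfb3, the receptors Tgfbr1, Tgfbr2 and Tgfbr3, the latency proteins Ltbp1 and Ltbp2, the induced matrix protein gene Tgfbi and the inhibitory SMAD gene Smad7. They were chosen by name, with earlier results of these data known, and make 10 of the 27179 genes in the bulk table. All 10 passed the filter on low values in the bulk libraries and were among the 14041 genes tested, and all 10 were read in both single-cell libraries. All libraries came from C57BL/6 mice. Immature cardiomyocytes (imCMs) from the left ventricle on the first day after birth were co-cultured with passaged cardiac fibroblasts, either neonatal fibroblasts (NFs) or adult fibroblasts (AFs), and were then separated again. Bulk RNA sequencing gave 2 libraries of imCMs cultured with NFs (imCM-NF) and 2 of imCMs cultured with AFs (imCM-AF). The question that this comparison asks is how the age of the fibroblasts changes the cardiomyocytes. More fibroblasts per imCM were plated in the AF co-cultures than in the NF co-cultures, so fibroblast age and plating ratio cannot be told apart. A further 2 libraries, 1 labelled cardiomyocytes and 1 labelled fibroblasts, hold single cells from named wells of a nanowell chip (ICELL8). The well names are AFNCM, NFNCM and NCM0 in the cardiomyocyte library and AF, NF, AF0 and NF0 in the fibroblast library. The labels do not explain these names, and they are used here as written. By the study's abbreviations, AF and NF stand for adult and neonatal fibroblasts.

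TGF-beta ligands are secreted in a latent form, bound to their own propeptide and often to a latent TGF-beta binding protein that tethers them to the matrix. Once freed by integrins, proteases or thrombospondin, a ligand binds the type II receptor Tgfbr2, which recruits and phosphorylates the type I receptor Tgfbr1. Tgfbr1 in turn phosphorylates SMAD proteins that enter the nucleus. In the heart the pathway is known best for turning fibroblasts into matrix-producing cells.

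The bases before the transcription start of 3 members are shown because they cover a ligand, a receptor and an induced target whose values carry the results below. Each is the 250-base window that ends at the base before the RefSeq start (build GRCm38.p6), with every GGGCGG and CAGAC, or their reverse complements CCGCCC and GTCTG, in capitals. GGGCGG is the core of the GC box read by Sp1 and its relatives, and CAGAC holds the short element that SMAD proteins bind. Tgfb1 was read from chr7:25686752-25687001 on the plus strand, Tgfbr2 from chr9:116175364-116175613 on the minus strand and Tgfbi from chr13:56609336-56609585 on the plus strand.
Tgfb1: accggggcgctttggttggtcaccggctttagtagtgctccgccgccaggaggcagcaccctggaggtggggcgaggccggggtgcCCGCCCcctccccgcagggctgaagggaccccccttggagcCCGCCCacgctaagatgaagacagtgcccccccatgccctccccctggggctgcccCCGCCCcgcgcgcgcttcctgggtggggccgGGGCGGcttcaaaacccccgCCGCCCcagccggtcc
Tgfbr2: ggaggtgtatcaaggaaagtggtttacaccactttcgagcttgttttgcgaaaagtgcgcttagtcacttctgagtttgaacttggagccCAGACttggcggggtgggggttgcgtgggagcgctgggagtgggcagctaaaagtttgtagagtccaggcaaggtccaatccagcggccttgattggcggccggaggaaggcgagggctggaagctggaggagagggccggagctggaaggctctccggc
Tgfbi: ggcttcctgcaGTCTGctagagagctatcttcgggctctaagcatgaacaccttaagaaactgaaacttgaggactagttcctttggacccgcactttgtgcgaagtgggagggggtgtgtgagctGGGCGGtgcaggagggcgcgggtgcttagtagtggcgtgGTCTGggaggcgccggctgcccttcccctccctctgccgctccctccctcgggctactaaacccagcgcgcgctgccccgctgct
The Tgfb1 window held 5 GC boxes and 0 CAGAC elements, the Tgfbr2 window 0 and 1, and the Tgfbi window 1 and 2. Among all 32851 RefSeq windows of this length, 32.7% held a GGGCGG and 42.2% a CAGAC on either strand. These matches describe the letters only, since no binding or chromatin data bear on them. The table held windows for 7 of the 10 members.

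The bulk libraries held between 9278909 and 12088577 counts. The single-cell libraries held 1409 and 1053 wells that were not controls, of which 1296 in the cardiomyocyte library and 951 in the fibroblast library passed the filters. In the bulk libraries the summed level of 18 cardiomyocyte markers was 59348 and 43315 CPM (counts divided by the TMM-adjusted library total and scaled by a fixed factor) in imCM-NF, against 53645 and 58670 CPM in imCM-AF. The summed level of 16 fibroblast markers was 17996 and 19991 CPM in imCM-NF against 12453 and 9939 CPM in imCM-AF, so fibroblast transcripts were present in all 4 libraries and lower in both imCM-AF libraries. Of these 16 fibroblast markers, 9 were called lower and 1 higher in imCM-AF, beside 4.99% and 6.15% of all genes tested. In bulk RNA, fewer cells of a type and less RNA per cell cannot be told apart.

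In bulk, the ligands, Tgfbr2, Ltbp1 and Tgfbi were read at lower levels in imCM-AF than in imCM-NF, by modest amounts, and Smad7 ran the other way. A gene was called changed at an adjusted p under 0.05 (edgeR's quasi-likelihood test, Benjamini-Hochberg adjustment) and an absolute log2 fold change over 0.58, which is 1.49-fold. By that rule 0 of the 10 members were called, against 11.1% of all genes tested (6.15% higher and 4.99% lower in imCM-AF). DESeq2 and limma-voom also called 0 members, while 6 of 10 had an unadjusted edgeR p under 0.05. By adjusted p alone, 5 of 10 members passed, against 27.0% of all genes, and all 5 were lower in imCM-AF: Tgfb1, Tgfb3, Tgfbr2, Ltbp1 and Tgfbi. The libraries of the 2 groups did not overlap for 8 of 10 members, against 66.0% of all genes. They did not overlap and were lower in imCM-AF for 7 of 10 members, against 33.8% of all genes. The median log2 fold change of the members was -0.23, beside 0.0011 over all genes tested. The summed level of the 10 members was 824 CPM in each imCM-NF library and 704 and 693 CPM in the imCM-AF libraries. Fibroblast marker levels moved in the same direction in the same libraries. So did the summed level of 12 endothelial markers, at 1514 and 1615 CPM in imCM-NF against 1180 and 1064 CPM in imCM-AF, with 5 of 12 called lower and 0 higher. The part of either list in the members' values was not tested.

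**Figure D1:**
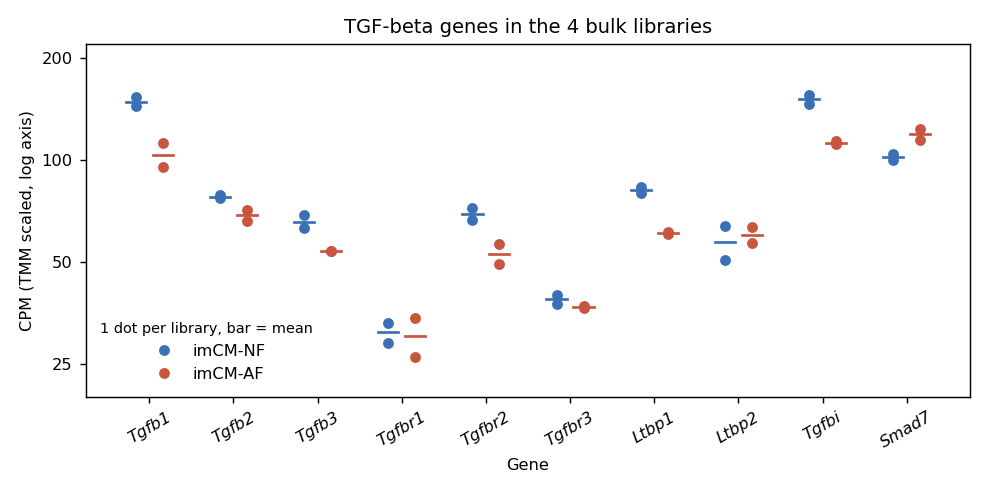
Level of each member in the 4 bulk libraries, in TMM-scaled CPM on a log axis, with 1 dot per library and a bar at the mean of each group of 2. The dots of imCM-AF lie below those of imCM-NF for 7 members, above them for Smad7, and overlap them for Tgfbr1 and Ltbp2.

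Among the ligands, Tgfb1 showed the largest difference. Tgfb1 (chromosome 7, 25687002 to 25705077, with gene coordinates here and below those of RefSeq on GRCm38) read 144 and 153 CPM in imCM-NF against 112 and 95.1 CPM in imCM-AF. Both imCM-AF libraries lay below both imCM-NF libraries, and the log2 fold change was -0.52 ± 0.10 (SE, n = 2 per group; adjusted p = 0.00124, edgeR). That lies just inside the fold threshold, and leaving out imCM-AF replicate 1 took it past the threshold, at -0.63. Tgfb3 (chromosome 12, 86056743 to 86079041) read 68.7 and 62.8 CPM in imCM-NF against 53.9 CPM in both imCM-AF libraries. Its log2 fold change was -0.28 ± 0.10 (adjusted p = 0.036, edgeR). Tgfb2 (chromosome 1, 186622787 to 186709697), the isoform that needs the co-receptor Tgfbr3 most for binding Tgfbr2, read 77.4 and 78.6 CPM in imCM-NF against 66.1 and 71.2 CPM in imCM-AF. The groups did not overlap, but its log2 fold change of -0.18 ± 0.09 did not pass (adjusted p = 0.154, edgeR). Per kilobase of exon, Tgfb1 was the highest of the ligands at a mean of 25.01 RPKM over the 4 libraries, followed by Tgfb3 at 17.7 and Tgfb2 at 12.7 RPKM.

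Of the receptors, only Tgfbr2 passed by adjusted p. Tgfbr2 (chromosome 9, 116087695 to 116175363), the ligand-binding kinase, read 66.5 and 72.3 CPM in imCM-NF against 56.4 and 49.4 CPM in imCM-AF, which is -0.39 ± 0.10 on the log2 scale (adjusted p = 0.00779, edgeR). Its signalling partner Tgfbr1 (chromosome 4, 47353222 to 47414926) read 33.1 and 28.8 CPM in imCM-NF against 26.2 and 34.1 CPM in imCM-AF. Those ranges overlap, and the log2 fold change was -0.03 ± 0.13 (adjusted p = 0.892, edgeR). Tgfbr3 (chromosome 5, 107106567 to 107289629), the co-receptor betaglycan, read 39.9 and 37.7 CPM in imCM-NF against 37.1 and 36.5 CPM in imCM-AF. Its groups were apart by a small margin, with a log2 fold change of -0.07 ± 0.10 (adjusted p = 0.624, edgeR). Per kilobase of exon, the mean levels were 7.47 RPKM for Tgfbr2, 5.77 RPKM for Tgfbr3 and 4.68 RPKM for Tgfbr1, all below the 3 ligands.

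Of the latency proteins, Ltbp1 passed by adjusted p and Ltbp2 did not. Ltbp1 (chromosome 17, 75005480 to 75392512), which binds latent TGF-beta covalently and holds it in the matrix, read 83.3 and 80.1 CPM in imCM-NF against 61.4 and 60.3 CPM in imCM-AF. The replicates lay close together, and the log2 fold change was -0.42 ± 0.09 (adjusted p = 0.0029, edgeR). Ltbp2 (chromosome 12, 84783212 to 84876558), a member of the same family that does not bind latent TGF-beta, read 50.6 and 63.7 CPM in imCM-NF against 63.3 and 57.0 CPM in imCM-AF. Its groups overlap, and the log2 fold change was 0.07 ± 0.11 (adjusted p = 0.689, edgeR). Tgfbi (chromosome 13, 56609586 to 56639359), a secreted matrix protein that binds integrins and was named for its induction by TGF-beta, read 156 and 146 CPM in imCM-NF against 113 and 111 CPM in imCM-AF. It was the highest member per kilobase of exon, at a mean of 34.9 RPKM, and its log2 fold change was -0.42 ± 0.09 (adjusted p = 0.00334, edgeR). Smad7, which blocks the activated receptors and is itself induced by the pathway, read 104 and 100.2 CPM in imCM-NF against 114 and 123 CPM in imCM-AF. Both imCM-AF libraries were the higher ones, but the log2 fold change of 0.22 ± 0.09 did not pass (adjusted p = 0.0919, edgeR). Annotated non-coding genes or pseudogenes overlap 7 members, with Tgfb1, Tgfb3 and Tgfbi the exceptions, and the library kit does not keep strand, so reads of such genes cannot be separated.

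Of the genes that release or hold latent TGF-beta, 6 of 21 tested were called lower and 2 higher in imCM-AF. Of all genes, 4.99% were called lower and 6.15% higher. The list's median log2 fold change was -0.37. Ltbp4, which binds latent Tgfb1 in elastic matrix, read 169 and 193 CPM in imCM-NF against 77.6 and 63.9 CPM in imCM-AF (log2 fold change -1.36 ± 0.11). Fbn1, the fibrillin that latency proteins attach to, read 622 and 697 against 381 and 311 CPM (-0.93 ± 0.13). Mmp14, a membrane protease, read 446 and 506 against 271 and 233 CPM (-0.92 ± 0.12). Asporin (Aspn), a small proteoglycan, was low throughout, at 6.58 and 6.53 CPM in imCM-NF against 1.83 and 2.10 CPM in imCM-AF (-1.73 ± 0.26). The genes called higher were fibromodulin (Fmod), another small proteoglycan, at 6.58 and 8.76 against 17.9 and 15.1 CPM (1.08 ± 0.18), and Itgb6, a subunit of an activating integrin, at 11.6 and 7.85 against 13.7 and 15.8 CPM (0.63 ± 0.18). The edgeR adjusted p of these 6 genes lay between 2.39e-07 and 0.0174. The call of Itgb6 was lost with DESeq2 (adjusted p = 0.0821) and when replicate 2 of either group was left out.

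Of 14 further receptors and receptor-level regulators tested, 8 had an adjusted p under 0.05, beside 27.0% of all genes, and the median was 0.04. By the full rule, 0 were called higher and 1 lower, beside 6.15% and 4.99% of all genes. That count of 1 was 4 with imCM-NF replicate 1 left out and 3 with imCM-AF replicate 1 left out. The gene called lower was Cd109, a membrane-anchored protein that binds TGF-beta beside its receptors, at 94.1 and 119 CPM in imCM-NF against 50.2 and 40.7 CPM in imCM-AF (-1.24 ± 0.12; adjusted p = 1.8e-06, edgeR). Of 18 SMAD genes and SMAD regulators tested, edgeR called 0, beside 11.1% of all genes, and DESeq2 and limma-voom also called 0. An unadjusted edgeR p under 0.05 was found for 9, and the share of all genes there was not computed. An adjusted edgeR p under 0.05 was found for 5, beside 27.0% of all genes. The median of the 18 was -0.01.

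Among 24 transcripts commonly induced by TGF-beta, 9 were called lower and 0 higher, beside 4.99% and 6.15% of all genes. The list's median was -0.36. Periostin (Postn), a matrix protein of activated fibroblasts, fell most and read 1177 and 1417 CPM in imCM-NF against 390.4 and 318 CPM in imCM-AF (-1.87 ± 0.15). Col5a1, a fibrillar collagen chain, read 1326 and 1485 against 837 and 639 CPM (-0.93 ± 0.15). Vimentin (Vim) read 2863 and 3258 against 1805 and 1492 CPM (-0.89 ± 0.17), and the transcription factor gene Snai2 read 15.7 and 18.4 against 9.40 and 9.49 CPM (-0.86 ± 0.16). The edgeR adjusted p of these 4 genes lay between 1.6e-07 and 0.00113. Of this list, 4 genes are also among the fibroblast markers and 3 among the smooth muscle or pericyte markers, so the list is not independent of the fibroblast transcripts described above.

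Other ligands of the superfamily and their antagonists were divided: of 22 tested, 5 were called higher and 2 lower. Of all genes, 6.15% were called higher and 4.99% lower. The list's median was -0.03. Higher in imCM-AF was the secreted BMP antagonist Nog, at 1.56 and 0.909 against 3.56 and 4.45 CPM (1.74 ± 0.34). The heart ligand Bmp10 read 2.34 and 2.40 against 4.38 and 4.37 CPM (0.88 ± 0.26), and Inha, the inhibin alpha chain, 2.12 and 3.30 against 4.47 and 5.38 CPM (0.83 ± 0.27). All 3 were at low levels. Lower were the activin antagonist follistatin (Fst), at 22.2 and 26.6 against 12.3 and 12.4 CPM (-0.99 ± 0.14), and Fstl1, a secreted glycoprotein abundant in fibroblasts, at 1708 and 1871 against 1191 and 959 CPM (-0.74 ± 0.15). The edgeR adjusted p of these 5 genes lay between 7.7e-05 and 0.0323. The list's count of 7 fell to 4 with DESeq2, where Bmp10 (adjusted p = 0.147) and Inha (adjusted p = 0.157) were not called, and to 3 without imCM-AF replicate 2. Leaving out any of the 4 libraries ended the call of Bmp10, leaving out imCM-NF replicate 1 or imCM-AF replicate 2 that of Inha, and leaving out imCM-AF replicate 2 that of Fstl1. Over the 5 lists together, 99 of 109 genes were tested, and 7 were called higher and 18 lower, beside 6.15% and 4.99% of all genes. Of the 109, 9 genes are also on a cell type marker list.

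The single-cell values are sums of unique molecular identifiers (UMIs) over the kept cells of a well name, given as CPM of all UMIs there. With 1 library per kind there was no test. Intervals are exact 95% Poisson intervals, or exact conditional intervals for ratios, and cover counting error only. The well names carry numbers (AFNCM1 to AFNCM3, for example), and values of each number are given as a view of the spread; the labels do not say whether they are separate cultures. Wells of both libraries shared 269 barcodes by sequence. The 5 negative control wells of each library held 0 UMIs of the members, apart from 1 UMI of Tgfbi in the fibroblast library, among 1465 and 3587 UMIs in all.

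Tgfbi stood out in the single cells, and in the direction opposite to bulk. In the cardiomyocyte library it read 37.8 CPM in AFNCM (570 UMIs) and 3.60 CPM in NFNCM (47 UMIs), which is 10.5-fold higher in AFNCM, a log2 ratio of 3.39 (interval 2.96 to 3.85). By numbered wells, AFNCM read 53.2, 47.5 and 19.1 CPM and NFNCM 1.52, 2.90 and 6.06 CPM. All 3 sets of AFNCM wells lay above all 3 sets of NFNCM wells, and leaving out any single set kept the log2 ratio between 3.07 and 4.07. In NCM0 it read 2.57 CPM in 1 set of wells and 0 UMIs in the other, where 3 counts would be 0.86 CPM. The fibroblast library showed the same contrast, with 49.1 and 26.3 CPM in AF and 2.16 and 6.76 CPM in NF, a log2 ratio of 3.14 (2.61 to 3.72). The wells named AF0 read only 3.48 and 0.191 CPM, and NF0 8.08 and 4.35 CPM, so of the 16 well names the 5 highest Tgfbi values were those of AFNCM and AF.

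The Tgfbi UMIs were unevenly spread over cells. In AFNCM, 87 of 515 cells held at least 1 Tgfbi UMI (16.9%, exact binomial interval 13.8 to 20.4%), against 18 of 523 cells in NFNCM (3.44%). Median depth was similar, at 19709 and 18770 UMIs per cell, and after each cell was thinned to 5000 UMIs the shares were 10.3% of 438 cells and 0.976% of 410 cells. In the cardiomyocyte-like cells of NFNCM the share was 1.99% of 302 cells before thinning and 1.12% of 268 cells after it. The 10 cells with the most Tgfbi UMIs held 61.9% of them in AFNCM and 83.0% in NFNCM. Without those 10 cells in each condition, AFNCM read 14.8 CPM and NFNCM 0.634 CPM. Summed endothelial markers were also higher in AFNCM, at 381 against 121 CPM, as were fibroblast markers, at 3217 against 1595 CPM, while macrophage markers were lower, at 608 against 854 CPM, and the part of the last 2 lists was not tested. Without the endothelial-like cells the log2 ratio of Tgfbi was 3.20.

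**Figure D2:**
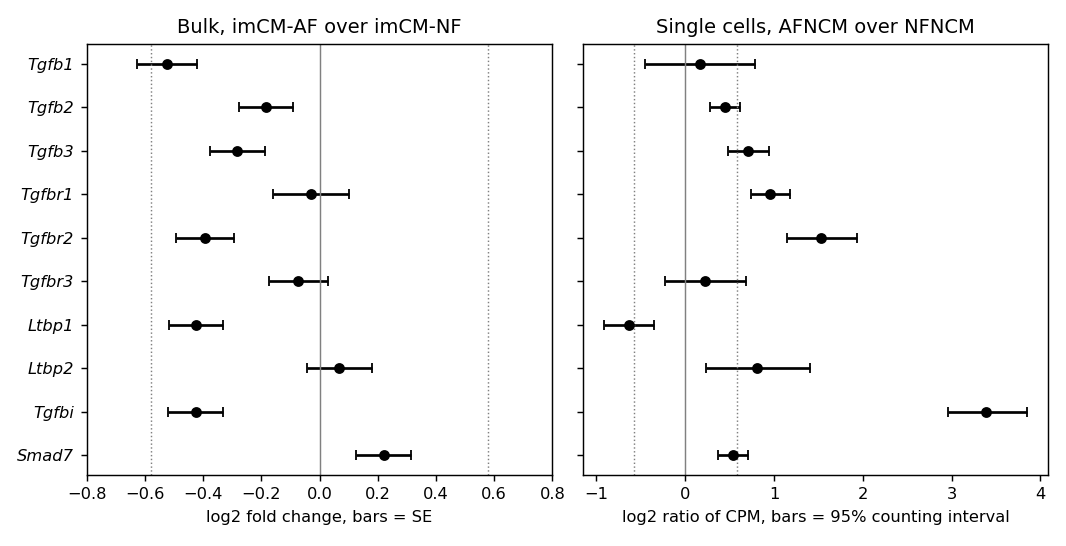
Log2 difference of each member in bulk (imCM-AF over imCM-NF, bars show the SE, 2 libraries per group). The other panel gives the cardiomyocyte single-cell library (AFNCM over NFNCM, well names as written, bars show 95% counting intervals). Dotted lines mark 0.58 in either direction, the axes of the panels differ, and Tgfbi lies at -0.42 in bulk and at 3.39 in the single cells.

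Of the ligands, Tgfb3 was past the fold used for calls in AFNCM against NFNCM, Tgfb2 was within it, and Tgfb1 was read too rarely. Ratios of members with a CPM over 10 in either condition were set against that fold, and 4 of 7 such members were higher in AFNCM and 1 lower, beside 15.8% and 4.27% of 8416 genes (20.1% in either direction). The numbered wells did not overlap for 4 of these 7 members, beside 22.8% of genes. Tgfb3 read 25.5, 35.7 and 26.2 CPM in AFNCM and 13.7, 15.2 and 24.7 CPM in NFNCM, a log2 ratio of 0.71 (0.48 to 0.94). The lowest AFNCM value was only slightly above the highest NFNCM value. The ratio came inside the fold without the AFNCM2 wells (0.52) or the NFNCM1 wells (0.57) and as a mean over cells (0.28). Within cardiomyocyte-like cells it turned to -0.83, where AFNCM held only 5, 1 and 9 Tgfb3 UMIs in clusters 3, 5 and 12. Tgfb2 read 51.3, 38.3 and 54.4 CPM in AFNCM and 32.6, 29.6 and 42.0 CPM in NFNCM, which overlap, with a log2 ratio of 0.45 (0.28 to 0.62). Tgfb1 gave 53 UMIs in AFNCM and 41 in NFNCM, at 3.51 and 3.14 CPM, and no difference was detectable at this depth (log2 ratio 0.16, -0.45 to 0.79).

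In the fibroblast library, 5 of 10 members were higher in AF than in NF by that fold and 1 lower, beside 26.1% and 12.7% of 8996 genes (38.8% in either direction). Cardiomyocyte markers summed to 1014 CPM in AF and 4584 CPM in NF, and fibroblast markers to 10862 and 4902 CPM, and their part in the members' values was not tested. Tgfb1 read 12.1 and 8.94 CPM in AF and 3.77 and 3.53 CPM in NF, a log2 ratio of 1.54 (0.90 to 2.22). The AF and NF wells did not overlap, on 93 and 26 UMIs. Tgfb2 read 66.6 and 30.9 CPM in AF and 67.9 and 62.0 CPM in NF, and Tgfb3 37.3 and 31.2 against 35.3 and 14.7 CPM. Both overlapped between AF and NF.

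Summed over all kept cells, both signalling receptors were higher in AFNCM. Tgfbr1 read 26.6, 37.1 and 44.2 CPM in AFNCM and 13.4, 18.7 and 24.7 CPM in NFNCM, a log2 ratio of 0.96 (0.74 to 1.18). Its wells did not overlap, and leaving out any 1 set kept the ratio between 0.78 and 1.20. Tgfbr2 read 20.2, 24.8 and 5.44 CPM in AFNCM and 4.05, 6.69 and 5.84 CPM in NFNCM, a log2 ratio of 1.53 (1.15 to 1.93). Here the AFNCM3 wells lay inside the NFNCM range, and the ratio was 0.98 without the AFNCM2 wells and 2.04 without the AFNCM3 wells. Within clusters the direction was mixed: of the 7 clusters with at least 8 cells in both conditions, each receptor was higher in AFNCM in 4 and lower in 3. Tgfbr1 read 0 UMIs (upper limit 10.6 CPM) against 9.07 CPM in cluster 5, a difference not detectable at this depth. In cluster 11 it read 18.7 CPM in 15 AFNCM cells against 176 CPM in 9 NFNCM cells. Those 9 cells held 67 UMIs, in 3 cells. The most Tgfbr1 UMIs in 1 NFNCM cell were 63, more than any other NFNCM cluster held in total. The third lower cluster was 14 (48.5 against 55.2 CPM). Tgfbr1 was higher in AFNCM in clusters 2 (48.3 against 29.6 CPM), 3 (13.9 against 2.23, on 3 AFNCM UMIs), 10 (47.6 against 18.9) and 12 (33.1 against 12.5). Fibroblast-like cells, which read 77.8 CPM of Tgfbr1 in AFNCM and 38.9 CPM in NFNCM, were 96 in AFNCM and 37 in NFNCM. Tgfbr3 was low, at 6.43 against 5.51 CPM, with a log2 ratio of 0.22 (-0.23 to 0.68). In the fibroblast library Tgfbr3 read 9.05 and 19.6 CPM in AF and 2.97 and 8.23 CPM in NF (log2 ratio 1.35, 0.82 to 1.91), with ratios of 0.72 without the AF2 wells, 0.77 without the NF1 wells and 2.24 without the NF2 wells. Tgfbr1 read 27.6 and 46.2 against 28.3 and 19.1 CPM (0.60, 0.33 to 0.88), which overlap, and its ratio came inside the fold without the AF2 wells (0.21) or the NF2 wells (0.36). Tgfbr2 read 15.9 and 8.22 against 13.2 and 4.99 CPM, with an interval that includes no difference (0.41, -0.05 to 0.87). That ratio ranged from -0.18 without the AF1 wells to 1.30 without the NF1 wells, and was past the fold also without the AF2 wells (0.78).

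Ltbp1, summed over all kept cells, was the member past the fold in the lower direction both in AFNCM and in AF. In the fibroblast library it read 9.91 and 24.4 CPM in AF and 34.2 and 35.3 CPM in NF, a log2 ratio of -1.05 (-1.36 to -0.75), which was -0.51 without the AF1 wells and -1.81 without the AF2 wells. In the cardiomyocyte library it read 24.4, 6.21 and 10.5 CPM in AFNCM and 19.0, 17.6 and 20.1 CPM in NFNCM, a log2 ratio of -0.63 (-0.92 to -0.35). The AFNCM1 wells lay above all NFNCM wells, and without them the ratio was -1.17. It came inside the fold without the AFNCM2 wells (-0.26) or the AFNCM3 wells (-0.51). Within clusters, Ltbp1 was higher in AFNCM in 4 of the 7 with at least 8 cells in both conditions, and lower in 2. Cardiomyocyte-like clusters 3, 5 and 12 read 50.9, 22.9 and 6.62 CPM in AFNCM against 18.3, 20.3 and 5.38 CPM in NFNCM. Those AFNCM values rest on 11, 8 and 6 UMIs. Ltbp2 was read at 5.24 and 2.99 CPM in AFNCM and NFNCM, under the level at which ratios were read, and at 17.9 and 21.7 CPM in AF and 6.47 and 35.8 CPM in NF. Smad7 read 49.6, 53.4 and 48.7 CPM in AFNCM and 37.7, 34.5 and 32.9 CPM in NFNCM, with no overlap and a log2 ratio of 0.54 (0.37 to 0.71). Fibroblast-like cluster 4 held 413 of the 764 AFNCM Smad7 UMIs (54.1%), and had 96 AFNCM cells but 1 NFNCM cell. Of the 7 clusters with at least 8 cells in both conditions, Smad7 was higher in AFNCM in 5 and lower in 2. The part of cluster 4 in the ratio was not tested. In the fibroblast library Smad7 read 67.2 and 97.4 CPM in AF and 45.5 and 32.6 CPM in NF, a log2 ratio of 1.05 (0.85 to 1.25). The numbered wells of AF and NF did not overlap for 5 of the 10 members, beside 47.5% of genes.

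**Figure D3:**
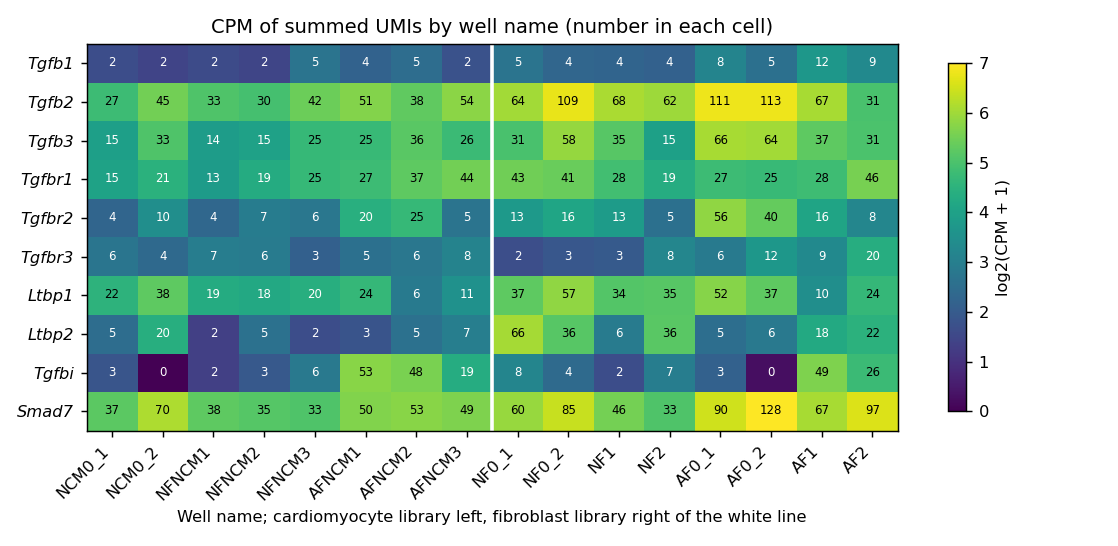
CPM of summed UMIs of each member (rows) under each of the 16 well names (columns), with the colour giving log2(CPM + 1) and the number the rounded CPM. Tgfbi is high only in AFNCM1 to AFNCM3, AF1 and AF2, and Tgfb2, Tgfb3 and Tgfbr2 are highest in AF0_1 and AF0_2.

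The wells whose names end in 0 are given as values, since the labels do not say what sets them apart. Tgfb2 read 111 and 113 CPM in AF0 and 63.7 and 109 CPM in NF0, and the AF0_1, AF0_2 and NF0_2 wells were the 3 highest of all. Tgfb3 read 66.4 and 64.2 CPM in AF0 and 30.8 and 58.5 CPM in NF0. Tgfbr2 read 56.0 and 39.6 CPM in AF0 and 12.9 and 16.2 CPM in NF0, and the AF0 values were above those of all other well names. Ltbp2 ran the other way, with 4.74 and 6.12 CPM in AF0 and 65.7 and 35.6 CPM in NF0. Smad7 read 89.8 and 128 CPM in AF0 and 60.0 and 84.8 CPM in NF0, and Tgfbr1 26.9 and 25.2 CPM in AF0 and 43.4 and 41.0 CPM in NF0. Ltbp1 read 51.6 and 37.3 CPM in AF0 and 37.1 and 56.5 CPM in NF0, which overlap. Of 7 members over a CPM of 10, 2 were past the fold higher in AF0 than in NF0 (Tgfbr2 with a log2 ratio of 1.61 and Smad7 with 0.59) and 2 lower (Ltbp2 with -3.07 and Tgfbr1 with -0.70), beside 24.7% and 17.2% of genes, or 41.9% in either direction. The numbered wells did not overlap for 6 of the 7, beside 58.7% of genes. Nearly all AF0 cells fell in a cluster of their own (number 7 below), which raised epicardial as well as fibroblast markers.

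Against AF0, 3 of 10 members were higher in AF and 4 lower, beside 24.0% and 28.0% of genes, or 52.0% in either direction, and 8 of 10 did not overlap, beside 60.8%. Tgfbi was the member furthest apart, with a log2 ratio of 4.75 (3.92 to 5.71), followed by Tgfbr2 with -1.89 and Ltbp2 with 1.82. Between NF and NF0, 0 of 7 members were higher in NF and 5 lower, beside 11.9% and 22.1% of genes, or 34.0% in either direction, and 3 of 7 did not overlap, beside 46.9%. Smad7 had a log2 ratio of -0.94 and Ltbp2 of -1.19 there. Between AFNCM and NCM0, 3 of 8 members were higher in AFNCM (Tgfbi, Tgfbr1 and Tgfbr2) and 2 lower (Ltbp1 and Ltbp2), beside 17.6% and 17.0% of genes, or 34.5% in either direction. Between NFNCM and NCM0, 0 of 6 members were higher in NFNCM and 3 lower (Ltbp1, Ltbp2 and Smad7), beside 8.41% and 20.5% of genes, or 28.9% in either direction. These last comparisons share the NCM0 wells. In NCM0, from 258 cells, Ltbp1 read 21.9 and 37.5 CPM, Smad7 36.9 and 69.6 CPM and Tgfb2 27.0 and 44.99 CPM.

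Kept cells were clustered without the members, into 14 clusters, of which 8 were named from marker genes: cardiomyocyte-like (clusters 3, 5 and 12), fibroblast-like (4 and 6), endothelial-like (11 and 13) and macrophage-like (14). The other clusters were left unnamed. Cluster 8, with 133 of the 515 AFNCM cells and 2 NFNCM cells, had 15 of 18 cardiomyocyte markers raised, as many as clusters 3 and 5. It stayed unnamed because its top 10 genes held the epicardial marker Krt18 and no listed cardiomyocyte marker. That top 10 was led by Sprr2a1 and other Sprr2 genes and included the interferon-induced Iigp1 and Igtp. Cluster 6 was named on 3 raised fibroblast markers only. Cluster 7, with 167 of the 170 AF0 cells, had as many fibroblast as epicardial markers raised. In AFNCM, 54 cells were cardiomyocyte-like, 96 fibroblast-like, 53 endothelial-like and 304 unnamed, against 302, 37, 13 and 163 in NFNCM. The 304 unnamed AFNCM cells include the 133 of cluster 8, so every value of cardiomyocyte-like AFNCM cells leaves that cluster out. No doublet caller was run. The class values that follow are sums over all conditions, whose shares of each class differ. In cardiomyocyte-like cells, Tgfb1 was at 1.51 CPM, Tgfbr1 at 9.39 CPM and Tgfbr2 at 5.45 CPM, each below its level in fibroblast-like cells, which was 7.87, 48.5 and 12.9 CPM. Ltbp2 was at 2.08 CPM in cardiomyocyte-like and 30.2 CPM in fibroblast-like cells, and Smad7 at 33.3 and 90.5 CPM. Endothelial-like cells, 53 of them from AFNCM, read 103 CPM of Tgfbi and 30.7 CPM of Tgfbr2, and macrophage-like cells, 38 in all, 38.0 and 11.2 CPM. The order of these classes was not the same in every condition. In NF, Tgfbi read 2.41 CPM in 26 endothelial-like cells against 69.7 CPM in 6 macrophage-like cells, and in NF0 0 UMIs (upper limit 10.8 CPM) in 8 against 64.0 CPM in 11. In NF0, Tgfbr2 read 2.93 CPM in endothelial-like and 24.8 CPM in fibroblast-like cells. Cluster 7 read 114 CPM of Tgfb2, 66.3 CPM of Tgfb3 and 46.4 CPM of Tgfbr2, the highest of the clusters when each is summed over all conditions.

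Tgfbi in AFNCM was highest in endothelial-like cluster 11, at 590.3 CPM in only 15 cells, which held 44.4% of the AFNCM Tgfbi UMIs, and next came cluster 8 with 28.9%. In NFNCM cluster 11 read 42.1 CPM in 9 cells. Outside it, cluster 2 read 32.2 CPM in AFNCM and 2.46 CPM in NFNCM. Cluster 5 (cardiomyocyte-like) read 37.3 and 0.605 CPM, and cluster 12 (also cardiomyocyte-like) 12.1 CPM and 0 UMIs, with an upper limit of 6.61 CPM. The AFNCM value was 13 UMIs in 4 of 14 cells for cluster 5 and 11 UMIs in 3 of 18 cells for cluster 12. Of the 7 clusters with at least 8 cells in both conditions, Tgfbi was higher in AFNCM in 6 and lower in 1, the macrophage-like cluster 14. In cluster 3, the cardiomyocyte-like cluster with the most AFNCM cells (22), it read 4.62 CPM on 1 UMI (0.117 to 25.8), against 1.48 CPM in NFNCM. Over cardiomyocyte-like cells it read 17.0 CPM in AFNCM, from 25 UMIs in 8 of 54 cells, and 1.01 CPM in NFNCM. Those cells were 54 in AFNCM and 302 in NFNCM, and most of the NFNCM cells were in clusters 3 and 5. In the fibroblast library, fibroblast-like cells read 20.9 CPM in AF, where they were nearly all of cluster 4, and 3.35 CPM in NF, where they were all of cluster 6, so the clusters differed with the condition.

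**Figure D4:**
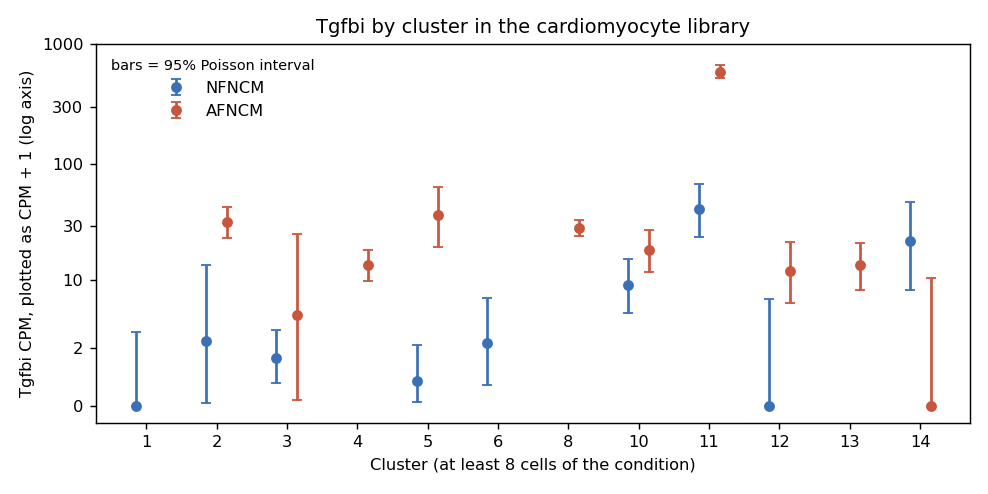
Tgfbi in AFNCM and NFNCM by cluster, for clusters with at least 8 cells of the condition, in CPM of summed UMIs plotted as CPM + 1 on a log axis, with 95% Poisson intervals. Cluster 11 in AFNCM reads 590.3 CPM, and clusters 2, 5, 8 and 10 in AFNCM lie between 18.6 and 37.3 CPM.

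Set side by side, the directions in bulk and in AFNCM against NFNCM were the same for 3 members (Ltbp1, Ltbp2 and Smad7) and opposite for 7. Several of these signs could not be told from no difference. The bulk log2 fold changes of Tgfbr1 (-0.03), Tgfbr3 (-0.07) and Ltbp2 (0.07) were smaller than their SE. The single-cell intervals of Tgfb1 and Tgfbr3 included no difference, and Tgfb1, Tgfbr3 and Ltbp2 were under the level at which ratios were read. Summed fibroblast, endothelial and smooth muscle or pericyte markers were also lower in both imCM-AF libraries but higher in AFNCM than in NFNCM. Macrophage markers were lower in both assays, and the bulk sums of cardiomyocyte and of epicardial markers overlapped. The part of these lists in the members' directions was not tested. The share of all genes with opposite directions was not computed. Bulk and single-cell libraries are different samples, and the difference between their contrasts was not tested. Bulk reads count along the whole transcript, while UMIs count molecules, so levels of a gene cannot be compared between the assays. Over the 16 well names and 9080 genes with a CPM over 20 in any of them, the genes whose log2(CPM + 10) followed the ligands and receptors most closely were Pycr1 and Tceal8 for Tgfb1 (Pearson r = 0.88 for both), Csrp1 and Gm27046 for Tgfb2 (0.91 for both), Max and Trim8 for Tgfb3 (0.93 and 0.91), Rexo1 and Cavin3 for Tgfbr1 (0.86 and 0.84), Ccdc18 and Usp46 for Tgfbr2 (0.93 and 0.88), and Myd88 and Ltbp3 for Tgfbr3 (0.87 and 0.86). The points share 2 libraries and differ in depth, and these correlations are descriptions.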

How the data were processed

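The authors deposited raw counts per gene for the 4 bulk libraries, made per the study's methods with subread (mm10, uniquely placed reads) and featureCounts on RefSeq genes. The submitters' processing notes also name Subread 1.4.6-p1 and STAR 2.5.2b. The single-cell matrices the authors deposited hold UMI counts, 1 row per well, from STAR and featureCounts on Ensembl genes. Spike-in columns were not used.

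Bulk genes with a CPM over 1 in at least 2 libraries were tested with edgeR 4.0.16 (R 4.3.3, TMM, quasi-likelihood test, group as the only term, Benjamini-Hochberg adjustment over all tested genes). The SE is the size of the log2 fold change divided by the square root of F. The procedure was tested on simulated data. DESeq2 1.42.0 and limma 3.58.1 (voom), other scalings, filters, thresholds and left-out libraries were the alternatives. The study filtered by RPKM, and CPM stood in because the table holds no lengths. Exon lengths for RPKM values came from GENCODE. The labels do not say whether the 2 libraries of a group came from separate cultures, and the study's general statement on independent experiments does not assign libraries to them, so p-values may measure technical spread.

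Wells were kept with at least 500 genes (mitochondrial genes left out), more than 50% of read pairs aligned, and UMIs no further than 2 SD from the average well. Clusters used scanpy 1.11.5 (10 components, Leiden resolution 1). Named were all members, of each pathway list the called genes, at most 4 per direction, and the 2 genes nearest to each ligand and receptor. One gene that this rule names is not reported here. The members and lists were chosen with earlier results of these data known.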

Additional observations from a re-analysis of the deposited data

Results flagged for a closer look

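Tgfbi was lower in both imCM-AF libraries than in both imCM-NF libraries in bulk, while all 3 sets of AFNCM wells lay above all 3 sets of NFNCM wells in the single cells, with a log2 ratio of 3.39. Tgfb3 showed the same opposition at a smaller size, with a log2 ratio of 0.71 in the single cells and -0.28 in bulk. Both were picked out because the groups did not overlap in either assay and lay in opposite directions. In the single cells the groups are numbered wells of 1 library, not separate samples. The difference between the assays was not tested.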

How the results depend on the processing

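The count of members called was 0 under both other scalings, both other tests, the 3 other filters and the replicate block, 5 by adjusted p alone, and between 0 and 1 when each bulk library was left out in turn. The 1 was Tgfb1 without imCM-AF replicate 1. All genes called numbered 1564, with 565 at a log2 threshold of 1, 3789 by adjusted p alone and 879 to 1929 with a library left out, lowest without imCM-NF replicate 2, and 988 when imCM-AF replicate 2 was dropped. Pathway genes called numbered 25, with 7 at a log2 threshold of 1, 51 by adjusted p alone and 16 to 29 with a library left out, lowest without imCM-AF replicate 2. Replicate numbers did not pair the samples, since the deviations of same-numbered libraries correlated at -0.18. With the replicate block, 1430 genes, 0 members and 23 pathway genes were called, and with the crossed pairing, chosen after seeing the data, 1668 genes, 0 members and 26 pathway genes. Tgfbr1 in bulk turned positive under upper quartile scaling (0.0053) and ranged from -0.23 to 0.16 with a library left out, turning positive also without imCM-NF replicate 1 (0.066). Ltbp2 ranged from -0.084 to 0.26, negative when imCM-NF replicate 1 was left out. Neither was called under any setting, and the cause was not tested. Of 217 values of the named pathway genes under alternatives, 13 lost the call and none changed sign. In the single cells, restricting to cardiomyocyte-like cells turned Tgfb3 to -0.83 and Ltbp2 to -1.74 in AFNCM over NFNCM, each on fewer cells. In AFNCM those cells held 5, 1 and 9 UMIs of Tgfb3 in clusters 3, 5 and 12. Of Ltbp2 they held 0, 0 and 1 UMI, and Ltbp2 was under the level at which ratios were read. Restricting to fibroblast-like cells turned Tgfbr1 to -0.50 in AF over NF. The NF cells kept there were 52 cells of cluster 6, with 88 Tgfbr1 UMIs in 8 cells (49.2 CPM). The 128 NF cells of unnamed cluster 1, at 16.1 CPM, were left out. Leaving out wells, endothelial-like cells or the 10 cells richest in a gene were alternatives chosen after seeing the data. With a bulk library left out, the lone library of its group is assumed to vary like the other group. Members read at a few CPM in single cells, such as Tgfb1 and Tgfbr3, are limited by depth. Without its 10 richest cells Tgfbi had 0 UMIs left in NF, so that alternative gave no ratio for AF over NF.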
